A study of Homo sapiens with 12 samples.

Results

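The cytosolic heat shock genes described here are HSF1, HSPA1A, HSPA1B, HSPA8, HSPH1, DNAJB1, HSP90AA1, HSP90AB1, HSPB1 and BAG3, chosen by name and function. No rule on their values was used, but the choice was made with earlier results of these data known. The shares over all genes given beside their counts are therefore a description and not a test of the group. They are 10 of the 63677 genes counted, and all 10 are among the 21325 genes that had enough counts to be tested. HSF1 is the regulator, HSPA8 and HSP90AB1 are the constitutive chaperones, and the other 7 are inducible.

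Polyadenylated RNA was sequenced from HCC38, MDA-MB-468 and SUM149PT, 3 established human lines of the basal-like subtype of breast cancer. Each line received either a non-silencing locked nucleic acid (LNA NS) or LNA1 and LNA2 directed at a long non-coding RNA (lncRNA), at a final 50 nM. The LNA were added at seeding, the medium was replaced at 6 h and the cells were harvested at 24 h. There were 2 libraries per line and treatment, 12 in all, and the question was how the transcriptome of each line changed when the lncRNA was reduced.

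An LNA GapmeR is a short antisense oligonucleotide that directs RNase H to its target, so the knock-down acts on the transcript. LNA1 and LNA2 were given together, so an effect of either one alone cannot be told apart. Whether the 2 libraries of a group are separate cultures is not stated, and the p-values therefore measure the spread between these libraries, which may be technical. Bulk RNA cannot tell fewer cells of one kind from less RNA per cell.

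Cells answer misfolded protein with the heat shock response. HSF1, the master transcription factor of that response, is held inactive by chaperones in unstressed cells and, when released, forms trimers that bind heat shock elements, repeats of the unit NGAAN in alternating orientation. HSP70 proteins, with J-domain partners that deliver substrates and nucleotide exchange factors that release them, fold and refold polypeptides, HSP90 finishes the folding of kinases and receptors, and small heat shock proteins hold unfolded chains in solution. Many tumor cells carry raised levels of these chaperones without heat.

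Gene counts per library ranged from 32187835 to 56191152, and the members' counts from 1450 to 217615 per library. Levels are given as CPM, counts per 1e+06 reads in genes after TMM normalization. The targeted lncRNA was read as LINC01956 (ENSG00000258910), the annotated gene at the position the study gives for it, and was lower in every knock-down library than in either LNA NS library of its line. In MDA-MB-468 it had 29 and 23 counts in the LNA NS libraries and 1 and 1 in the knock-down libraries, 398 and 344 against 31 and 14 in SUM149PT, and 668 and 737 against 81 and 76 in HCC38. All 8 epithelial and keratin markers were detected in every group, with summed levels from 1508 to 11178 CPM, and 9 immune, endothelial and fibroblast markers summed to between 18.4 and 130 CPM, with 1 to 4 of them at 0 in a group. The epithelial sum was 10556 to 11178 CPM for MDA-MB-468 with LNA NS and 7387 to 7789 CPM for its knock-down, and it was 5078 to 5098 against 4218 to 4252 CPM in SUM149PT. In MDA-MB-468 EGFR (5556 against 2800 CPM on average) and KRT5 (2470 against 1889 CPM) fell, while EPCAM (389 against 545 CPM) and KRT14 (16.6 against 26.1 CPM) rose and the other 4 were not called. The part of these markers in the results below was not tested.

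The promoter sequences of the members were searched for heat shock elements. A window from 250 bases before to 50 bases after the start of the canonical GENCODE transcript was read from GRCh37 for 9 members. HSF1 was left out of this search, although its canonical start is annotated, and no sequence is shown for it. It also had no entry in the RefSeq promoter table. The windows were searched on both strands for 2 abutting units of the heat shock element (GAANNTTC or TTCNNGAA) and for 3 units (GAANNTTCNNGAA or TTCNNGAANNTTC, which contain 2-unit matches). The 2-unit form was found in 7 of the 9 windows and in 9.49% of 15022 windows of tested protein-coding genes. The 3-unit form was found in 3 of the 9, HSPA8, HSPH1 and HSP90AA1, and in 0.35% of all the windows. HSP90AB1 and BAG3 had neither form in this window, which says only that these letters are not there. The matches did not separate the classes, since constitutive HSPA8 had 4 of the 2-unit form and inducible BAG3 had 0. The stretches that carry the matches follow, 5′ to 3′ on the gene's strand, with the matched units in capitals.
HSPA1A, GRCh37 chr6:31783189-31783246, plus strand: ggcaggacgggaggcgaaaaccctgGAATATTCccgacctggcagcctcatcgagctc
HSPA1B, GRCh37 chr6:31795385-31795442, plus strand: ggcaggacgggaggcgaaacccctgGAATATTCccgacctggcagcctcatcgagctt
HSPA8, GRCh37 chr11:122932862-122933094, minus strand: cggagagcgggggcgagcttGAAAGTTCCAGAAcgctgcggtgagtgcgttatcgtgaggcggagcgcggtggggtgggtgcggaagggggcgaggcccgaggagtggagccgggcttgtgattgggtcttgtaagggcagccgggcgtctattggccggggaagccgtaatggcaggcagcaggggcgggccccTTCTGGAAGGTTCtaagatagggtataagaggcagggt
HSPH1, GRCh37 chr13:31736063-31736205, minus strand: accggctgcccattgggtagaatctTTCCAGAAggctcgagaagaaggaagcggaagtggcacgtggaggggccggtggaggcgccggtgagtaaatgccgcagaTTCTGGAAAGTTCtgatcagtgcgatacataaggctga
DNAJB1, GRCh37 chr19:14629224-14629311, minus strand: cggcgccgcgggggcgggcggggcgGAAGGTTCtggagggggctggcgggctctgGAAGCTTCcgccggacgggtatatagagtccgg
HSP90AA1, GRCh37 chr14:102553417-102553494, minus strand: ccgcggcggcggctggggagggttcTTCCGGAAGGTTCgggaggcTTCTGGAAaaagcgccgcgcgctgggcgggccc
HSPB1, GRCh37 chr7:75931783-75931840, plus strand: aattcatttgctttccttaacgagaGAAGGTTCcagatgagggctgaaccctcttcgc

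The start chosen matters for this search. The RefSeq promoter table, built on GRCh38.p14, held windows for 9 members and each matched GRCh37 at 1 place. For HSP90AA1 that window lay 52705 bp from the canonical start, for DNAJB1 10874 bp, for HSP90AB1 907 bp and for HSPH1 484 bp, and no heat shock element of either form was found in those 4 windows. For HSPA1A, HSPA1B, HSPA8, HSPB1 and BAG3 the table's start and the canonical start were the same base.

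With LNA NS, the constitutive chaperones led the group in abundance. On the scale of CPM per kilobase of canonical transcript, HSP90AB1 averaged 949 and HSPA8 890 over the 6 LNA NS libraries, followed by HSP90AA1 at 497 and HSPB1 at 459. DNAJB1 averaged 98.0, HSF1 57.8, HSPH1 52.0, HSPA1A 33.8, BAG3 31.1 and HSPA1B 25.9. Ranked over all 12 libraries among 15096 protein-coding genes, HSP90AB1 was at place 124, HSPA8 at 126, HSP90AA1 at 191 and HSPB1 at 212. By the same measure HSPA1A was at 2686 and HSPA1B at 3239. Of the 50-base stretches of HSPA1A and HSPA1B, 75.1% and 73.6% occur in another gene. Reads aligned to several places were not counted, so the levels and ranks of this pair are underestimates. In HCC38 the top 3 were not separated by their spread on this scale, with HSPA8 at 841 and 782 CPM per kilobase, HSP90AA1 at 795 and 677, and HSP90AB1 at 769 and 717. In SUM149PT they were separated, with HSP90AB1 at 1289 and 1305, HSPA8 at 1089 and 1100, and HSP90AA1 at 425 and 439. In MDA-MB-468 the libraries of HSP90AB1, at 832 and 782, overlapped those of HSPA8, at 797 and 730, and both genes lay above HSPB1, at 535 and 517. Using the union of all annotated exons as the length instead lowered HSPA8 to 415, DNAJB1 to 26.8, HSPB1 to 220 and HSF1 to 23.3 CPM per kilobase, which kept the order of the first 4 averages and changed that of the other 6. In HCC38 the union length did separate the top 3, with HSP90AB1 at 659 and 615, HSP90AA1 at 503 and 429, and HSPA8 at 393 and 365 CPM per kilobase. Both the order within HCC38 and that of the lower 6 genes therefore depend on the transcript model.

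**Figure D1:**
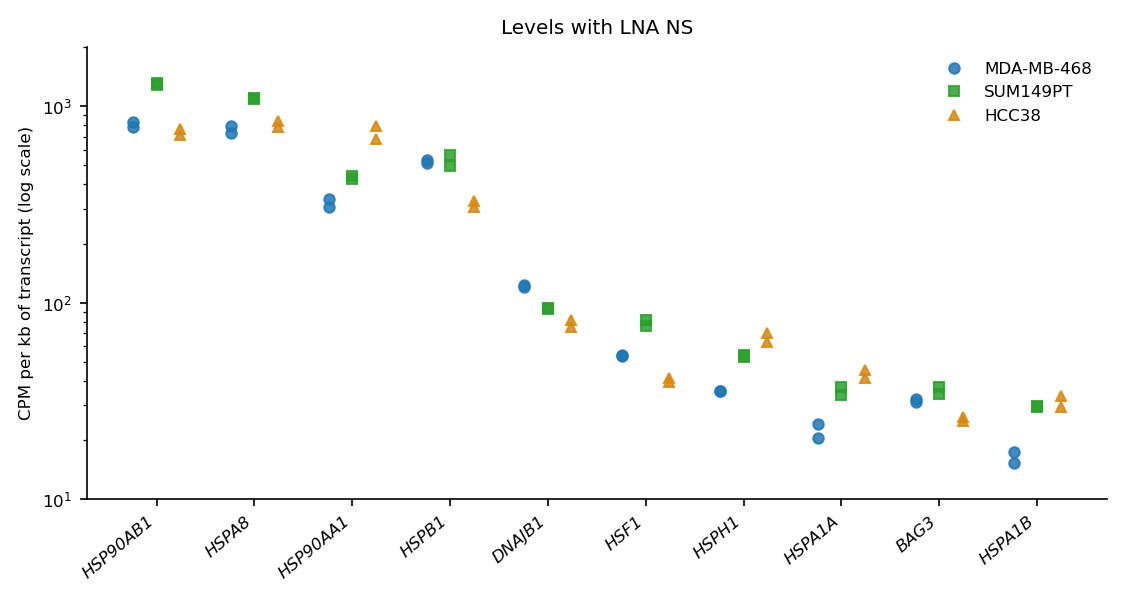
Levels of the 10 heat shock genes with LNA NS, in CPM per kilobase of canonical transcript on a log axis, with 1 symbol per library (2 per line) and genes ordered by their mean. HSP90AB1 and HSPA8 average 949 and 890, and HSP90AA1 is the gene whose HCC38 libraries (795 and 677) stand farthest above the other lines in this group.

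The lines differed in their chaperone profile with LNA NS. These cells had also received an LNA, and the series holds no untreated library. The paper's methods give HCC38 an RPMI medium and the other lines a DMEM-based medium. That of SUM149PT held less serum, with insulin and hydrocortisone added. Line and medium cannot be told apart in these comparisons. In MDA-MB-468 against HCC38, 4 members were higher and 4 lower at an adjusted p under 0.1, where 33.7% and 37.7% of all tested genes were, 71.4% together. In SUM149PT against HCC38, 6 were higher and 3 lower, against 31.6% and 38% of all genes, 69.6% together, and in MDA-MB-468 against SUM149PT 1 was higher and 8 were lower, against 35.3% and 33.2%, 68.5% together. These shares of members are read against backgrounds that were themselves the larger part of the genes tested, and only HSP90AA1 between MDA-MB-468 and HCC38 exceeded 2-fold, a size reached by 43.6% of all tested genes in that comparison, 40.1% in SUM149PT against HCC38 and 40.7% in MDA-MB-468 against SUM149PT. The 3 comparisons share libraries and are given side by side.

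HSP90AA1, the stress-inducible HSP90 alpha (chr14:102547079-102606036, minus strand), was highest in HCC38, with 2566 and 2186 CPM in the LNA NS libraries. It had 1372 and 1417 CPM in SUM149PT and 1094 and 995 CPM in MDA-MB-468. No 2 lines overlapped, and MDA-MB-468 was lower than HCC38 by a log2 difference of -1.19 (SE 0.0910, edgeR adjusted p = 1.07e-08) and SUM149PT by -0.77 (SE 0.0903, edgeR adjusted p = 1.86e-06). HSP90AB1, the constitutive HSP90 beta (chr6:44213903-44221625, plus strand), had the reverse order at the top. Its LNA NS libraries held 3292 and 3335 CPM in SUM149PT, 2127 and 1998 CPM in MDA-MB-468 and 1965 and 1832 CPM in HCC38. SUM149PT exceeded HCC38 by 0.80 on the log2 scale (SE 0.0721, edgeR adjusted p = 8.42e-08), while MDA-MB-468 and HCC38 differed by 0.12 (SE 0.0717, edgeR adjusted p = 0.154).

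HSPA1A, HSPA1B and HSPH1, an HSP110 that acts as a nucleotide exchange factor for HSP70, were lowest in MDA-MB-468. Against HCC38 the log2 differences there were -0.97 (SE 0.116), -0.95 (SE 0.104) and -0.91 (SE 0.115), with edgeR adjusted p-values of 2.08e-06, 7.12e-07 and 3.69e-06. DNAJB1 went the other way and was highest in MDA-MB-468, by 0.63 over HCC38 (SE 0.0799, edgeR adjusted p = 3.65e-06) and by 0.38 over SUM149PT (SE 0.0797, edgeR adjusted p = 0.000611). HSPB1 was higher in MDA-MB-468 (log2 difference 0.72) and SUM149PT (0.74) than in HCC38, and did not separate the first pair (-0.02, SE 0.0889, edgeR adjusted p = 0.903). HSF1 was highest in SUM149PT and exceeded HCC38 by 0.96 there (SE 0.0947, edgeR adjusted p = 2.56e-07). Without HCC38 LNA NS replicate 1, only 1 member in place of 3 was lower in SUM149PT than in HCC38.

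After knock-down the members called, and their directions, differed between the 3 lines. In MDA-MB-468, 4 members rose and 2 fell, beside 24.9% and 25.7% of all tested genes, 50.6% together. In SUM149PT 3 rose and 4 fell, beside 20% and 18%, 38% together, and in HCC38 0 rose and 5 fell, beside 15.5% and 18.4%, 34% together. In HCC38 the count of members that rose at an unadjusted p under 0.05 was also 0, and DESeq2 and RLE normalization each called 1, BAG3. No member changed by more than 2-fold in any line, a size passed by 20.2%, 10.6% and 9.36% of tested genes in MDA-MB-468, SUM149PT and HCC38. The median log2 fold change of the members was 0.17, -0.07 and -0.17 in that order of lines, where the median of all tested genes was 0, 0.03 and 0.01.

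A test of whether the response differed between the lines called 9 of the 10 members, BAG3 being the exception (edgeR adjusted p = 0.107). The same test called 32.4% of all tested genes. Called changes of opposite sign were seen for HSPH1 and HSP90AB1, which rose in MDA-MB-468 and SUM149PT and fell in HCC38, for DNAJB1, which rose in MDA-MB-468 and fell in HCC38, and for HSPA1B, which rose in MDA-MB-468 and fell in SUM149PT. Several of these calls were lost in other fits or without a single library, as given below. They are that of HSPH1 in HCC38, those of DNAJB1 in both lines and those of HSP90AB1 in each line. The fall of HSF1 and HSPB1 was called in MDA-MB-468 and SUM149PT and not in HCC38, and the falls of HSPA8 and HSP90AA1 were called in HCC38 alone, and each of these 4 genes passed the test of the difference.

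**Figure D2:**
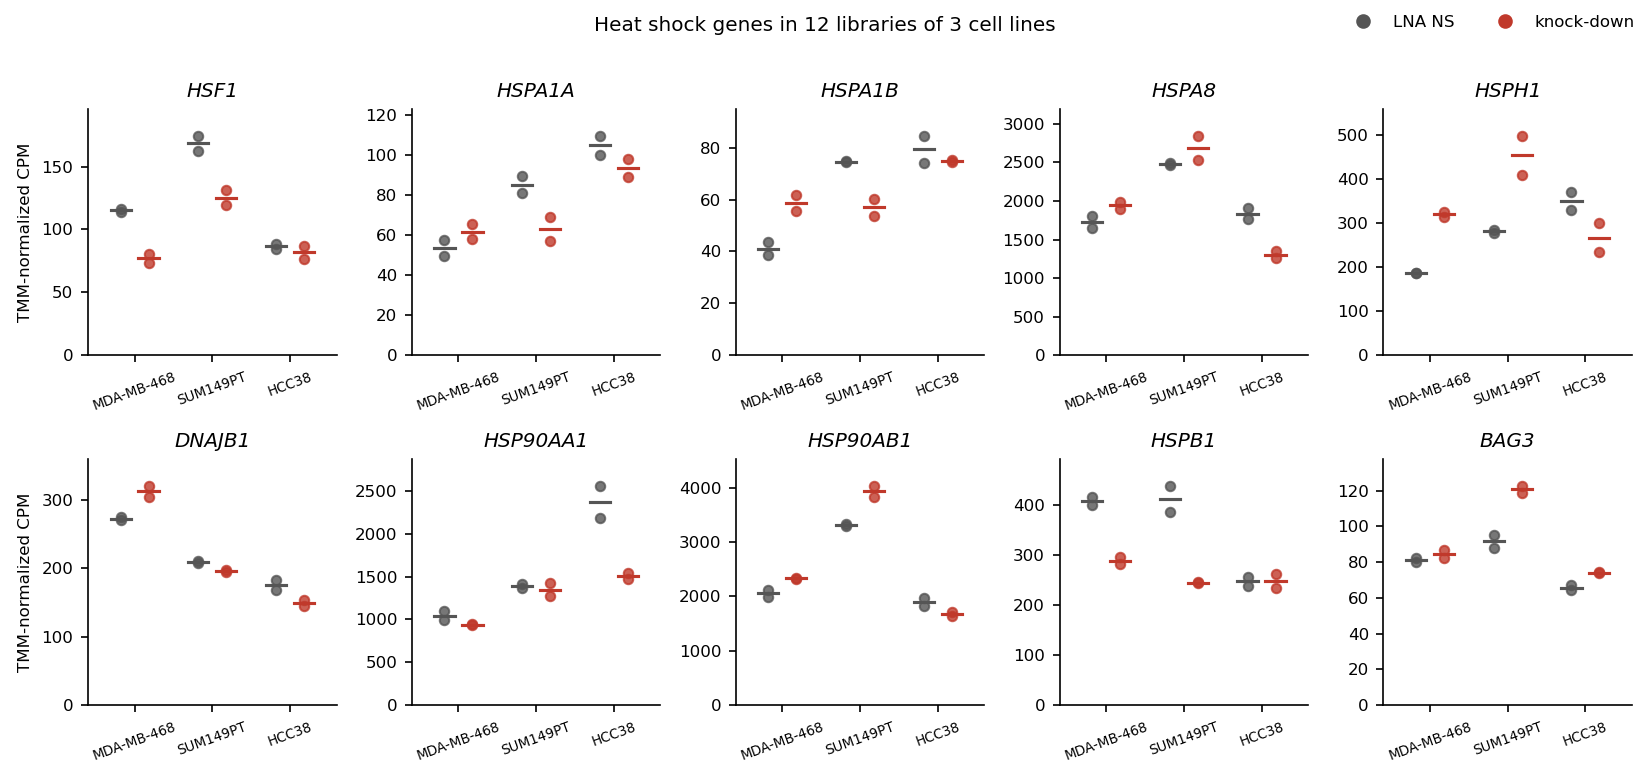
TMM-normalized CPM of each heat shock gene in all 12 libraries, by line, with 1 point per library, grey for LNA NS and red for knock-down, and a bar at the mean of 2 libraries. Each axis starts at 0 and has its own scale, and HSPH1 is higher after knock-down in MDA-MB-468 and SUM149PT and lower in HCC38, with no overlap in any line. Groups did not overlap for 69.8%, 63.1% and 61.5% of all tested genes in MDA-MB-468, SUM149PT and HCC38.

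HSF1 (chr8:145515273-145538383, plus strand), the transcription factor that drives the response, fell at the RNA level in 2 of the lines. In MDA-MB-468 it had 116 and 114 CPM in the LNA NS libraries and 80.7 and 73.6 CPM in the knock-down libraries. In SUM149PT it had 162 and 175 CPM against 119 and 131 CPM, and in HCC38 84.4 and 88.8 against 76.8 and 87.1 CPM. The groups were apart in the first pair of lines and overlapped in HCC38. Groups were apart for 69.8%, 63.1% and 61.5% of all tested genes in MDA-MB-468, SUM149PT and HCC38. The log2 fold changes were -0.58 in MDA-MB-468 (SE 0.0945, edgeR adjusted p = 0.000118), -0.43 in SUM149PT (SE 0.0939, edgeR adjusted p = 0.00254) and -0.08 in HCC38 (SE 0.0942, edgeR adjusted p = 0.584). DGAT1 overlaps HSF1 by 137 bp on the opposite strand and had 21.99% as many counts in all. The RNA level of HSF1 is not a measure of its activity, which is set largely after translation.

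HSPA1A (chr6:31783320-31785723) and HSPA1B (chr6:31795515-31798031), both on the plus strand and each made of a single exon, encode the major stress-inducible HSP70. The promoter stretches printed above for the pair are nearly the same, and so are their transcripts. Of all 50-base stretches of the canonical transcript, 75.1% of those in HSPA1A and 73.6% of those in HSPA1B also occur in another gene, chiefly the partner. Reads from those stretches cannot be placed, so the split between both genes is uncertain and the counts of both are underestimates.

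In MDA-MB-468, HSPA1B had 43.7 and 38.5 CPM in the LNA NS libraries and 55.6 and 61.7 CPM in the knock-down libraries. It rose by 0.51 on the log2 scale (SE 0.104, edgeR adjusted p = 0.000765). HSPA1A had 57.6 and 49.4 CPM against 57.9 and 65.3 CPM, and its log2 fold change of 0.20 was not called (SE 0.116, edgeR adjusted p = 0.177). With the counts of both genes summed, the rise in MDA-MB-468 was 0.35 (edgeR adjusted p = 0.0125). The sum still leaves out the reads aligned to several places.

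In SUM149PT both genes fell. HSPA1A had 81.0 and 89.4 CPM in the LNA NS libraries and 57.1 and 68.8 CPM in the knock-down libraries, and HSPA1B had 74.9 and 74.4 against 53.9 and 60.1 CPM. The log2 fold changes were -0.44 (SE 0.116, edgeR adjusted p = 0.00893) and -0.39 (SE 0.103, edgeR adjusted p = 0.00882), and that of HSPA1A was -0.32 without SUM149PT KD replicate 1 (edgeR adjusted p = 0.119). In HCC38, HSPA1A had 110 and 99.9 against 89.2 and 98.0 CPM (-0.16, SE 0.115, edgeR adjusted p = 0.331), and HSPA1B had 84.7 and 74.3 against 75.4 and 74.4 CPM (-0.09, SE 0.102, edgeR adjusted p = 0.592). The HSPA1B libraries of HCC38 overlapped.

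HSPA8 (chr11:122928197-122933938, minus strand), the constitutive HSC70 and the member with 2 of the 3-unit elements in its window, fell in HCC38. It had 1904 and 1770 CPM in the LNA NS libraries and 1346 and 1255 CPM in the knock-down libraries there, a log2 fold change of -0.50 (SE 0.0823, edgeR adjusted p = 0.000317). In MDA-MB-468 the values were 1805 and 1653 against 1993 and 1892 CPM (0.17, SE 0.0821, edgeR adjusted p = 0.112), and in SUM149PT 2465 and 2490 against 2847 and 2528 CPM (0.12, SE 0.0821, edgeR adjusted p = 0.315). The knock-down libraries lay above the LNA NS libraries in both of these lines and below them in HCC38. Over all tested genes, 35.3% lay above in MDA-MB-468, 33.7% lay above in SUM149PT and 30.9% lay below in HCC38. The value in MDA-MB-468 passed under DESeq2 (adjusted p = 0.0908), under RLE normalization (0.0796) and with the line fitted alone (0.0689).

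HSPH1 (chr13:31709110-31736525, minus strand) had the largest rise among the members in MDA-MB-468 and in SUM149PT. In MDA-MB-468 it went from 186 and 187 CPM to 313 and 326 CPM, a log2 fold change of 0.78 (SE 0.114, edgeR adjusted p = 4.40e-05). In SUM149PT it went from 284 and 278 CPM to 498 and 410 CPM, a log2 fold change of 0.69 (SE 0.114, edgeR adjusted p = 0.000266). In HCC38, where the LNA NS libraries had the highest HSPH1 of the 3 lines at 370 and 330 CPM, the knock-down libraries had 299 and 235 CPM. That log2 fold change was -0.39 (SE 0.114, edgeR adjusted p = 0.0189). The fall in HCC38 rested on single libraries, being -0.31 without HCC38 LNA NS replicate 1 (edgeR adjusted p = 0.165) and -0.23 without HCC38 KD replicate 2 (edgeR adjusted p = 0.244). No 50-base stretch of HSPH1 was shared with another gene.

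DNAJB1 (chr19:14625581-14671203, minus strand), the HSP40 J-domain protein that feeds clients to HSP70, moved little. In MDA-MB-468 it had 276 and 271 CPM in the LNA NS libraries and 305 and 322 CPM in the knock-down libraries, in SUM149PT 211 and 208 against 198 and 195 CPM, and in HCC38 183 and 169 against 145 and 153 CPM. The groups did not overlap in any line, up in MDA-MB-468 and down in the others. Over all tested genes, 69.8%, 63.1% and 61.5% did not overlap in MDA-MB-468, SUM149PT and HCC38. The log2 fold changes were 0.20 in MDA-MB-468 (SE 0.0795, edgeR adjusted p = 0.0539), -0.10 in SUM149PT (SE 0.0797, edgeR adjusted p = 0.393) and -0.24 in HCC38 (SE 0.0797, edgeR adjusted p = 0.0358). The call in MDA-MB-468 was lost without LNA NS replicate 1 (0.20, edgeR adjusted p = 0.165), without LNA NS replicate 2 (0.18, edgeR adjusted p = 0.217) and without KD replicate 2 (0.16, edgeR adjusted p = 0.251) of that line and with no filter on low counts (0.18, edgeR adjusted p = 0.224), and the call in HCC38 with the line fitted alone (-0.23, edgeR adjusted p = 0.151) and without its LNA NS replicate 1 (-0.18, edgeR adjusted p = 0.227) or KD replicate 1 (-0.22, edgeR adjusted p = 0.165). TECR lies on the opposite strand across 43307 bp of the annotated DNAJB1 span and had 33.2% as many counts.

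BAG3 (chr10:121410892-121437331, plus strand), a co-chaperone that links HSP70 to autophagy, rose in SUM149PT. It had 95.4 and 88.1 CPM in the LNA NS libraries and 119 and 123 CPM in the knock-down libraries there, a log2 fold change of 0.40 (SE 0.0850, edgeR adjusted p = 0.00213). In HCC38 the values were 64.2 and 67.2 against 74.3 and 74.0 CPM (0.17, SE 0.0852, edgeR adjusted p = 0.148). In MDA-MB-468 the libraries overlapped, at 82.6 and 80.1 against 86.8 and 82.1 CPM (0.05, SE 0.0851, edgeR adjusted p = 0.654).

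HSP90AA1 fell in HCC38, the line in which it had been highest. There it went from 2566 and 2186 CPM to 1538 and 1473 CPM, a log2 fold change of -0.66 (SE 0.0901, edgeR adjusted p = 5.84e-05) that left it above every library of MDA-MB-468. In MDA-MB-468 it had 1094 and 995 CPM against 949 and 931 CPM (-0.15, SE 0.0898, edgeR adjusted p = 0.191). In SUM149PT it had 1372 and 1417 CPM against 1426 and 1270 CPM, with overlapping groups (-0.05, SE 0.0898, edgeR adjusted p = 0.739).

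HSP90AB1 rose in MDA-MB-468 from 2127 and 1998 CPM to 2341 and 2330 CPM, and in SUM149PT from 3292 and 3335 CPM to 4046 and 3841 CPM. In HCC38 it fell from 1965 and 1832 CPM to 1708 and 1636 CPM. The log2 fold changes were small, at 0.18 (SE 0.0717, edgeR adjusted p = 0.0537), 0.25 (SE 0.0717, edgeR adjusted p = 0.0140) and -0.18 (SE 0.0717, edgeR adjusted p = 0.0720). The call in HCC38 was lost under DESeq2 (-0.16, adjusted p = 0.135), under RLE normalization (-0.16, edgeR adjusted p = 0.123) and with the line fitted alone (-0.17, edgeR adjusted p = 0.254), and without its LNA NS replicate 1 (-0.13, edgeR adjusted p = 0.320) or KD replicate 2 (-0.15, edgeR adjusted p = 0.288). The call in MDA-MB-468 was lost without LNA NS replicate 2 (0.13, edgeR adjusted p = 0.308), KD replicate 1 (0.17, edgeR adjusted p = 0.175) or KD replicate 2 (0.18, edgeR adjusted p = 0.148) of that line and with no filter on low counts (0.16, edgeR adjusted p = 0.105), and the call in SUM149PT without its KD replicate 1 (0.21, edgeR adjusted p = 0.124). Of the 50-base stretches, 19.7% of HSP90AB1 and 19.1% of HSP90AA1 occur in other genes, mainly pseudogenes, whose own counts were at most 0.145% of the member's.

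HSPB1 (chr7:75931990-75933612, plus strand), the small heat shock protein HSP27, had the largest fall among the members in SUM149PT. It went there from 386 and 440 CPM to 245 and 245 CPM, a log2 fold change of -0.75 (SE 0.0895, edgeR adjusted p = 1.34e-05). In MDA-MB-468 it went from 416 and 401 CPM to 296 and 282 CPM, a log2 fold change of -0.50 (SE 0.0891, edgeR adjusted p = 0.000260). In HCC38, which started lower, the libraries overlapped at 256 and 239 against 235 and 263 CPM (0.01, SE 0.0890, edgeR adjusted p = 0.976).

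**Figure D3:**
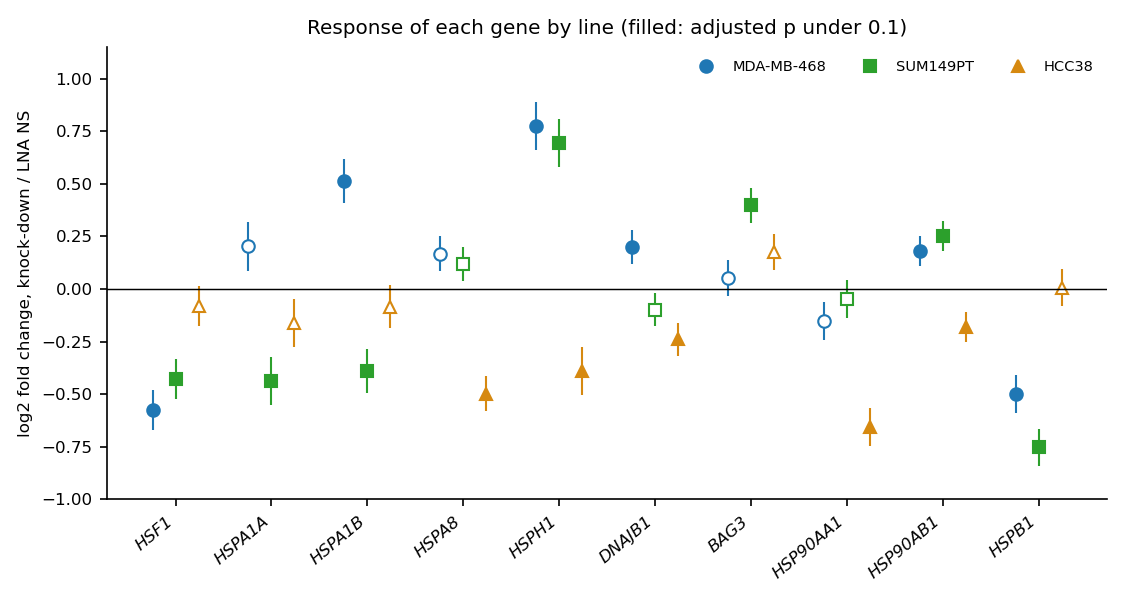
Log2 fold change of knock-down over LNA NS for each heat shock gene, by line, with bars of 1 SE from the edgeR fit and filled symbols for an adjusted p under 0.1. HSPH1 runs from 0.78 in MDA-MB-468 to -0.39 in HCC38, and the HCC38 symbols of HSPA8 and HSP90AA1 lie lowest at -0.50 and -0.66.

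Averaged over the 3 lines, 2 members rose and 3 fell, beside 28.4% and 26.5% of all tested genes, 54.8% together, and an average over 2-fold was reached by 12.5% of genes and by 0 members. HSPH1 rose by 0.36 (SE 0.0657, edgeR adjusted p = 0.000258) and BAG3 by 0.21 (SE 0.0491, edgeR adjusted p = 0.00219). HSPB1 (-0.42, SE 0.0514, edgeR adjusted p = 5.44e-06), HSF1 (-0.36, SE 0.0544, edgeR adjusted p = 4.03e-05) and HSP90AA1 (-0.29, SE 0.0519, edgeR adjusted p = 0.000240) fell. The value of HSPH1 averages 2 rises and a fall. The genes whose log2 levels, centred within each line, followed HSPB1 most closely over the 12 libraries were CLIC1 (Pearson r = 0.984), HCFC1R1 (0.984) and ENSG00000056661 (0.983), a description in which all points share the treatment contrast.

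Inducible and constitutive paralogs were then compared within each library, where normalization between libraries plays no part. HSP90AA1 counts were 0.514 and 0.498 times those of HSP90AB1 with LNA NS in MDA-MB-468 and 0.405 and 0.399 times after knock-down. In SUM149PT the ratio was 0.417 and 0.425 against 0.352 and 0.331, and in HCC38 1.31 and 1.19 against 0.901 and 0.900. These ratios are of counts and are not corrected for length. Per kilobase of canonical transcript, the HCC38 libraries with LNA NS of both genes overlapped, and per kilobase of the exon union HSP90AA1 lay below HSP90AB1, as given above. The log2 ratio moved by -0.33 (pooled SD 0.0256) in MDA-MB-468, -0.30 (SD 0.0480) in SUM149PT and -0.47 (SD 0.0651) in HCC38, so the shift had the same sign in all 3 lines and exceeded the spread in each. The genes behind it differed by line. HSP90AA1 itself was called only in HCC38 (-0.66), and was at -0.15 in MDA-MB-468 and -0.05 in SUM149PT. HSP90AB1, the denominator, rose in MDA-MB-468 (0.18) and SUM149PT (0.25) and fell in HCC38 (-0.18).

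For HSP70, the summed counts of HSPA1A and HSPA1B were 5.62% and 5.32% of those of HSPA8 with LNA NS in MDA-MB-468 and 5.70% and 6.71% after knock-down. In SUM149PT the share was 6.32% and 6.58% against 3.90% and 5.10%. In HCC38 it was 10.2% and 9.84% against 12.2% and 13.7%. Of the 50-base stretches, 75.1% of HSPA1A, 73.6% of HSPA1B and 16.8% of HSPA8 occur in other genes. Reads aligned to several places were not counted, so these percentages understate the share of the inducible pair. The log2 ratio moved by 0.18 (pooled SD 0.125), -0.53 (SD 0.196) and 0.37 (SD 0.0879) in the same order, down in SUM149PT and up in HCC38. The value in MDA-MB-468 was 0.06 without KD replicate 2 and 0.30 without KD replicate 1 of that line, and that in SUM149PT was -0.34 without its KD replicate 1. In HCC38 the share went up although neither inducible gene rose, and HSPA8, the denominator, fell. With 2 libraries per group, an exact permutation test of such a ratio within a single line cannot reach a p under 0.05. No test of the ratios was run within or across the lines, since the members were chosen with earlier results of these data known.

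**Figure D4:**
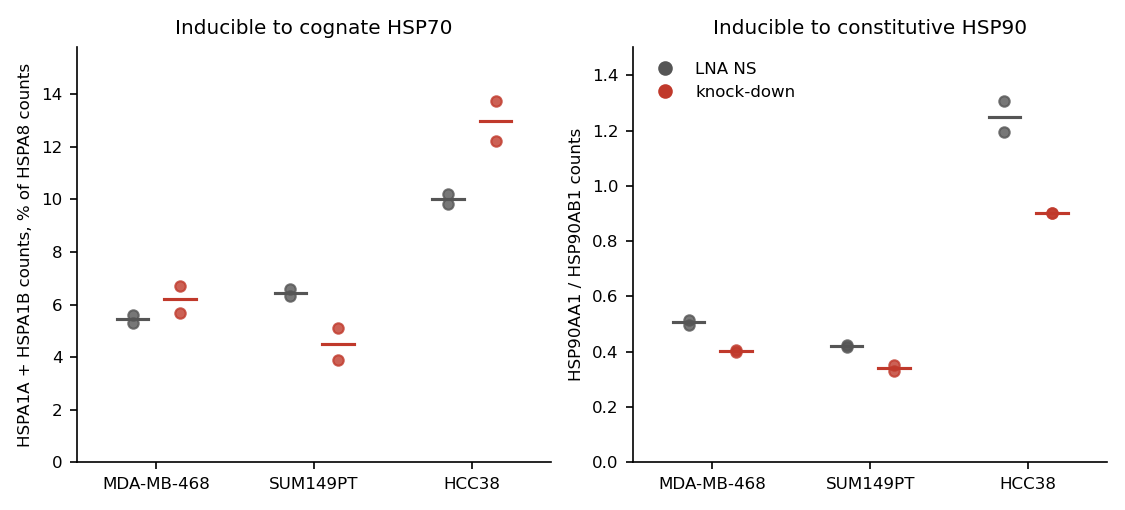
Counts of HSPA1A plus HSPA1B as a percentage of HSPA8 counts (left) and of HSP90AA1 divided by HSP90AB1 counts (right), with 1 point per library, grey for LNA NS, red for knock-down and a bar at the mean. The HSP90 ratio is lower after knock-down in each line, from 1.31 and 1.19 to 0.901 and 0.900 in HCC38, while the HSP70 share goes down in SUM149PT and up in HCC38. The HSP70 percentages understate the inducible pair, because reads aligned to several places were not counted.

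As surroundings for the 10 members, 68 further genes in 9 lists of chaperones and heat shock factors were read, of which 64 were tested. In MDA-MB-468 34 rose and 15 fell with a median of 0.28, in SUM149PT 26 rose and 15 fell with a median of 0.18, and in HCC38 8 rose and 16 fell with a median of -0.07. Over all tested genes, 24.9% rose and 25.7% fell in MDA-MB-468, 20% and 18% in SUM149PT, and 15.5% and 18.4% in HCC38, with medians of 0, 0.03 and 0.01, and the counts of each list below are to be read against these shares. The response differed between lines for 34 of the 64, beside 32.4% of all tested genes. The number that rose in SUM149PT was 17 without LNA NS replicate 1 of that line and the number that fell was 9 without its KD replicate 2, and in HCC38 the number that fell was 7 without LNA NS replicate 1.

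The TRiC chaperonin, a cytosolic ring of 8 subunits that folds actin and tubulin, gave 7 rises and 1 fall in MDA-MB-468, 6 rises and 1 fall in SUM149PT, and 0 rises and 4 falls in HCC38, where the shares of all genes were 24.9% and 25.7%, 20% and 18%, and 15.5% and 18.4%. TCP1 rose by 0.36 in MDA-MB-468 and fell by 0.36 in HCC38. CCT6A (0.39 and 0.32, then -0.33) and CCT8 (0.55 and 0.49, then -0.34) rose in MDA-MB-468 and SUM149PT and fell in HCC38, while CCT4 rose by 0.54 and 0.43 and was at -0.11 in HCC38 (edgeR adjusted p = 0.402). CCT2 stood apart from the other subunits and fell in every line, with log2 fold changes of -1.20, -0.73 and -1.28 (edgeR adjusted p = 2.16e-07, 7.26e-05 and 4.39e-07).

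Among the other HSP70 relatives, HSPA2 rose in each line, by 1.45, 0.86 and 0.42, and averaged 11.7 ± 0.578 CPM (SD, n = 2) with LNA NS in MDA-MB-468. HSPA4, an HSP110 like HSPH1, rose by 0.55 and 0.43 and was at -0.13 in HCC38 (edgeR adjusted p = 0.443), and HSPA14, a ribosome-associated HSP70, rose by 0.39 and 0.28 and fell by 0.41 in HCC38. HSPA6 rose by 0.87 in SUM149PT (edgeR adjusted p = 0.0311) and by 0.83 in HCC38 (edgeR adjusted p = 0.0149). In MDA-MB-468 it was at 1.09 (edgeR adjusted p = 0.110), on 8 counts with LNA NS and 20 after knock-down. For HSPA6 the lines did not differ by the test (edgeR adjusted p = 0.956). Of the J-domain proteins, DNAJB2 rose by 0.35, 0.71 and 0.73, and DNAJA4 rose by 1.67 in MDA-MB-468, where it averaged only 2.02 CPM with LNA NS, and by 0.38 in SUM149PT, with 0.07 in HCC38 (edgeR adjusted p = 0.5996).

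FKBP5 and CDC37 had the smallest adjusted p of the HSP90 co-chaperones in the mean over the lines, which favors genes that move alike. FKBP5, an HSP90-bound immunophilin of steroid receptor complexes, fell by 1.68, 0.95 and 0.65 on the log2 scale, and CDC37, which brings kinases to HSP90, fell by 0.80, 0.62 and 0.60. For CDC37 the lines did not differ by the test (edgeR adjusted p = 0.335). Over the 13 genes of this list, 7 rose and 5 fell in MDA-MB-468, 1 rose and 5 fell in SUM149PT, and 0 rose and 3 fell in HCC38, beside the same shares of all genes.

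BAG1, a nucleotide exchange factor of HSP70, rose by 0.26, 0.34 and 1.06, and BAG2, an inhibitor of the HSP70-bound ligase CHIP, fell by 0.35, 0.34 and 0.32. Of the HSF1 relatives, HSF2 rose by 0.81 in MDA-MB-468 and 0.66 in SUM149PT and was at -0.34 in HCC38 (edgeR adjusted p = 0.109), and HSF4 fell by 0.53 and 0.79 and was at 0.11 in HCC38 (edgeR adjusted p = 0.666). Of 9 other targets of HSF1, 4 rose and 2 fell in MDA-MB-468, 3 rose and 2 fell in SUM149PT, and 2 rose and 2 fell in HCC38, beside 24.9% and 25.7%, 20% and 18%, and 15.5% and 18.4% of all genes. IER5, which promotes HSF1 activity, rose by 0.55, 0.85 and 0.80, DEDD2 rose by 0.58, 0.45 and 0.66, and SERPINH1, a collagen chaperone of the endoplasmic reticulum, rose by 0.44 in MDA-MB-468, fell by 0.19 in SUM149PT and was at -0.12 in HCC38 (edgeR adjusted p = 0.266).

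Of 8 further small heat shock protein genes, 5 were tested and 1 was called in each line. CRYAB, alpha B crystallin, fell by 0.56 in MDA-MB-468, rose in SUM149PT by 2.02 (SE 0.624) on 12 counts with LNA NS and 61 after knock-down over 2 libraries each, and was at 0.02 in HCC38. HSPB8, the small heat shock protein that partners BAG3, rose by 1.13 in HCC38, on 485 counts with LNA NS and 1023 after knock-down. In the other lines it was near the floor. It was at -1.55 in MDA-MB-468 on 8 and 3 counts (edgeR adjusted p = 0.190). In SUM149PT it was at 0.08 on 15 and 20 counts (edgeR adjusted p = 0.948). Among the mitochondrial chaperones, HSPA9 rose by 0.76 and 0.35 and was at 0.13 in HCC38 (edgeR adjusted p = 0.241), and HSPD1, mitochondrial HSP60, rose by 0.43 and 0.38 and fell by 0.49 in HCC38. TRAP1, the mitochondrial HSP90, fell by 0.84, 0.68 and 0.47.

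**Figure D5:**
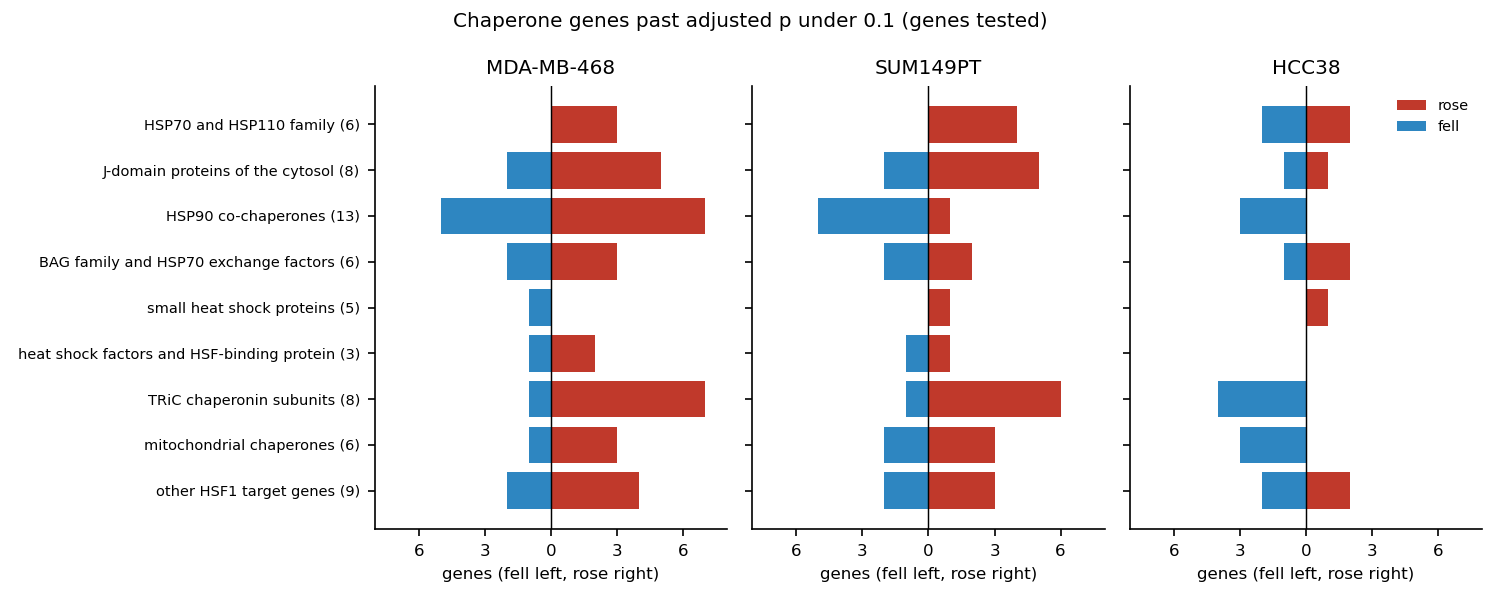
Number of genes in each of 9 chaperone lists that rose (right, red) or fell (left, blue) at an adjusted p under 0.1, by line, with the number tested in brackets. The TRiC row shows 7 rises in MDA-MB-468 and 6 in SUM149PT, and 0 rises with 4 falls in HCC38.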

How the data were processed

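RNA-seq of 12 libraries (3 lines, 2 treatments, 2 libraries each) was analysed from whole-number counts per Ensembl gene, 1 table per library, as deposited. The authors' libraries were poly(A)-selected and strand-specific. The study's methods name STAR as the aligner, while the submitters' processing notes list TopHat2 2.0.13 and HTSeq 0.6.0, with build GRCh37 (hg19). The annotation release and the strand setting of the counting were not given in the sources used here. Rows that name no gene, 5 per table (no feature, ambiguous, several alignments and the like) and 40.8% to 53.7% of its total, entered neither library sizes nor tests. Reads aligned to several places made up 28.6% to 32.4%, so genes with near copies are undercounted. The counts give the depth, from 32187835 to 56191152 per library. Names came from GENCODE v44lift37, which covered 55665 of 63677 identifiers, and 0.636% of counts fell in unnamed genes. Members and lists were chosen with earlier results of these data known.

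Genes passing filterByExpr (minimum count 10, minimum total 15) were fitted with edgeR 4.0.16 (R 4.3.3): TMM normalization, 1 mean per group over all 12 libraries, the quasi-likelihood test and Benjamini-Hochberg adjustment over 21325 genes, called at 0.1. "edgeR adjusted p" means this value. Other list genes named are the 2 with the smallest adjusted p in the mean contrast at 1 CPM or more per list, and each gene called in opposite directions in 2 lines. HSPA6 was named in addition to these. The fit was tested on simulated data. Chi-square per degree of freedom between the 2 libraries of a group was 15.8 to 27.9, above sampling noise, so each counted as 1 replicate. Alternatives were RLE normalization, DESeq2 1.42.0, no count filter, a replicate block, each line fitted alone, HSPA1A and HSPA1B summed, and each library left out. A crossed block in HCC38 and the exon-union length were chosen after seeing the data. Figures used matplotlib 3.10.9. The antisense sequences are not reported here.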

Additional observations from a re-analysis of the deposited data

Results flagged for a closer look

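The knock-down response differed between the 3 lines, by a test of the difference itself, for 9 members, where the same test called 32.4% of all tested genes. The adjusted p-values from edgeR's quasi-likelihood test were 0.000242 for HSPH1, 0.00135 for HSPA8, 0.0015 for HSPA1B, 0.00173 for HSPB1, 0.00573 for HSP90AA1, 0.011 for HSP90AB1, 0.0249 for DNAJB1, 0.0271 for HSPA1A and 0.0308 for HSF1. The first 6 passed with any 1 of the 12 libraries left out. The difference for HSF1 was lost without HCC38 KD replicate 2 (edgeR adjusted p = 0.146), that for HSPA1A without MDA-MB-468 LNA NS replicate 2 (0.117) or KD replicate 2 (0.113), and that for DNAJB1 without the same libraries (0.105 and 0.107). The line and every other property that separates these 3 cultures cannot be told apart here.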

How the results depend on the processing

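Adjusted p-values rest on 2 libraries per group and 6 residual degrees of freedom, so small changes are decided by single libraries. No all-gene count moved by over 1.5 times. Members that rose in MDA-MB-468 went from 4 to 2 with no filter on low counts and from 4 to 2 with the replicate block, and ranged from 2 to 4 over single libraries left out, 2 without LNA NS replicate 2 or KD replicate 2 of that line. Members that rose in HCC38 went from 0 to 1 under RLE normalization and to 1 under DESeq2. Members that fell in HCC38 went from 5 to 3 with the line fitted alone, with a range of 2 to 5 over libraries left out (2 without LNA NS replicate 1, 3 without KD replicate 2). For the chaperone lists the ranges were 17 to 27 rises and 9 to 15 falls in SUM149PT and 7 to 17 falls in HCC38, and the members lower in SUM149PT than in HCC38 ranged from 1 to 3. Signs changed only for uncalled values near 0: HSPB1 in HCC38 (-0.0119 with no filter, -0.0781 to 0.0667 over libraries left out), HSPA1B in the mean (-0.0659 summed with HSPA1A, -0.0237 to 0.0398), HSPB1 between MDA-MB-468 and SUM149PT (0.0113 with no filter, 0.0615 with the block, -0.0874 to 0.0702), HSP90AA1 in SUM149PT (-0.143 to 0.0400), HSPA1B in HCC38 (-0.181 to 0.0093) and HSPA1B between SUM149PT and HCC38 (-0.171 to 0.0189). The cause was not tested. Same-numbered libraries did not deviate together in every line (correlations of deviations -0.34 in HCC38, 0.27 in SUM149PT and -0.04 in MDA-MB-468). Rows that name no gene held 53.0% of HCC38 KD replicate 2 and 44.5%, 42.0% and 40.8% of the other HCC38 libraries. In SUM149PT they held 53.7% and 53.2% of the libraries numbered 2 and 47.1% and 44.4% of those numbered 1. What set these libraries apart was not tested. With the crossed pairing in HCC38, 0 members rose and 5 fell. The replicate block ended the calls of DNAJB1 (adjusted p = 0.115) and HSP90AB1 (0.111) in MDA-MB-468 of HSP90AB1 in HCC38 (0.148) and of BAG3 between MDA-MB-468 and SUM149PT with LNA NS (0.293).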
